A study of Homo sapiens with 8 samples.

Results

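The protein kinase C (PKC) family was followed through RNA sequencing libraries of SUDHL6 and HT, both established cell lines from diffuse large B cell lymphoma, after iEZH or DMSO. The family was taken as 10 gene symbols, and the members were the rows of the deposited tables that carry these symbols. Of the 10, 8 were listed among 13036 genes of the SUDHL6 table and 9 among 13700 genes of the HT table. PRKCZ was listed in HT and not in SUDHL6, and PRKCQ in neither table. PRKD1, a further protein kinase D (PKD) gene, is outside the 10 symbols and was in neither table. The tables hold only genes that the authors rated detectable, so the members with values were selected on their measured level, and the family was also proposed with the changes under iEZH already known. Counts of called members, their changes and their p-values are therefore descriptions, and support nothing about the family.

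Cells of each line were exposed for 96 hours to iEZH, which the series title describes as a small molecule PRC2 inhibitor, or to DMSO, the control. The 4 groups are SUDHL6 with iEZH, SUDHL6 with DMSO, HT with iEZH and HT with DMSO, with 2 libraries each and 8 in all. The labels give no genotype or EZH2 allele for either line, and they do not say whether the replicates were separate cultures, so p-values measure the spread between these libraries only. Levels are FPKM, the authors' fragment counts scaled to transcript length and library size, with 1 value per symbol, so that splice variants of a kinase cannot be told apart. Total reads per library ran between 59563321 and 94821806, and no interval for counting error is given since the tables hold FPKM alone. All 8 B cell markers looked up, among them MS4A1, CD79A and PAX5, were listed in both lines, with summed levels of 4234 to 4990 FPKM with iEZH and 4075 to 4228 FPKM with DMSO in SUDHL6, and of 2247 to 2501 FPKM with iEZH and 2017 to 2063 FPKM with DMSO in HT. None of 7 T cell markers was listed in SUDHL6. In HT 4 of the 7 were (CD3D, CD3E, CD3G and CD8A; not CD2, CD5 or TRAT1), with sums of 1.26 and 2.26 FPKM with iEZH and of 0.621 and 0.733 FPKM with DMSO. Of 6 myeloid markers, 1 was listed in SUDHL6 (0.115 to 0.159 FPKM with iEZH, 0.2 to 0.273 FPKM with DMSO) and 2 in HT (0.68 to 0.953 FPKM with iEZH, 0.29 to 0.351 FPKM with DMSO). Of 4 NK cell markers, none was listed in SUDHL6 and 2 in HT (0.824 to 1.02 FPKM with iEZH, 0.401 to 0.96 FPKM with DMSO). Among 6 epithelial or stromal markers, none was listed in SUDHL6 and 1, DCN, in HT. DCN had 1.81 to 2.41 FPKM in HT with iEZH and 1.71 to 2.03 FPKM in HT with DMSO. The part of these markers in the results was not tested.

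PKC enzymes are serine/threonine kinases that carry signals from the cell membrane. In B cells, engagement of the antigen receptor activates phospholipase C gamma 2, which releases the lipid diacylglycerol (DAG) and, through IP3, calcium. Classical PKCs need both DAG and calcium, a second group of PKCs needs DAG alone (called DAG-only here), and atypical PKCs need neither and are held by scaffold proteins. PKC beta links the B cell receptor to NF-kB, PKC delta is known for its part in B cell tolerance and apoptosis, and PKC theta (PRKCQ) is best known from T cells. PKDs are a separate kinase family that binds DAG and is switched on by the DAG-only PKCs. PRC2 places methyl groups on lysine 27 of histone H3, and in mammals its sites lie largely in CpG-dense promoters of genes with low transcription.

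Promoter sequences are shown for PRKCA, PRKCE and PRKCH. These are among the members whose levels were higher with iEZH in at least 1 line, as described further on. The sequence of PRKCQ, which had no values, is shown beside them so that CpG content can be compared. The sequences come from RefSeq on GRCh38.p14, another build than the hg19 of the tables. Each is the stretch of 250 bases before the outermost annotated start, with every CpG in capitals. PRKCA lies at chr17:66302363-66302612 (plus strand), PRKCE at chr2:45651425-45651674 (plus strand), PRKCH at chr14:61321329-61321578 (plus strand) and PRKCQ at chr10:6580647-6580896 (minus strand).
PRKCA: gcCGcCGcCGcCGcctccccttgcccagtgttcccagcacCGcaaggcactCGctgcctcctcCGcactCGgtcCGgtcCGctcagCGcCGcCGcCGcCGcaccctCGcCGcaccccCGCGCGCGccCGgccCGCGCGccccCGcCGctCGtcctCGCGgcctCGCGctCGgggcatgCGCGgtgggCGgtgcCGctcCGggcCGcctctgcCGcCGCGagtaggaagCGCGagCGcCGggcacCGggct
PRKCE: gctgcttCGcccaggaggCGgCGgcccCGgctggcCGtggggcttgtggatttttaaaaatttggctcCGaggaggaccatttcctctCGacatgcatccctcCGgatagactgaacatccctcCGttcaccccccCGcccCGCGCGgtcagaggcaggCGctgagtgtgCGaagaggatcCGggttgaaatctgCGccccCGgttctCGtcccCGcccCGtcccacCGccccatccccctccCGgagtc
PRKCH: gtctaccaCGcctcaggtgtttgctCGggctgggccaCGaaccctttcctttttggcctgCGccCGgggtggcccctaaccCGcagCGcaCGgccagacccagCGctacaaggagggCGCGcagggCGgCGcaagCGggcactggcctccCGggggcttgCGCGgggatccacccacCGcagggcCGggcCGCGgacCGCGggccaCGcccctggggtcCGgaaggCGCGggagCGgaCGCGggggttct
PRKCQ: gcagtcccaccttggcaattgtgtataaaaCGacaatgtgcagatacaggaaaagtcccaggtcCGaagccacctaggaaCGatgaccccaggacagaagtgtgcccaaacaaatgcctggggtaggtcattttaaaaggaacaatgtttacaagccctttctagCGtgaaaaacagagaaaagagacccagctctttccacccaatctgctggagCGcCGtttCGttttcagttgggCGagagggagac
The PRKCA stretch holds 47 CpG, the PRKCH stretch 30, the PRKCE stretch 23 and the PRKCQ stretch 8. Of 14410 symbols listed in either table, 9521 had such a stretch, with a median of 20 CpG and quartiles of 13 and 28. PRKCA stood above 99.6% of them, PRKCH above 80.1%, PRKCE above 57.9% and PRKCQ above 14.6%. All 10 members matched, with a median of 27 CpG. PRKD3 (41), PRKCZ (37) and PRKCB (30) also stood above the upper quartile. PRKCI (12) and PRKCQ (8) were the sparsest. In SUDHL6, PRKCI and PRKCD (24) were also higher in both iEZH libraries than in both DMSO libraries, and so was PRKCZ in HT. A relation of CpG content to the changes with iEZH was not tested. The AP-1 motif TGACTCA and the CREB motif TGACGTCA, searched on both strands and neither containing the other, matched none of the 10 stretches, against 2.52% and 2.69% of the listed symbols. A missing match says only that these letters are not in the window.

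Within SUDHL6, PRKD3, PRKCA and PRKCD were the most abundant members. Ordered by their DMSO levels, PRKD3 averaged 44.0 ± 3.86 FPKM with iEZH and 45.4 ± 8.16 FPKM with DMSO (SD, n = 2 each, here and below). PRKCA averaged 35.9 ± 2.92 and 41.7 ± 0.842 FPKM with iEZH and DMSO, and PRKCD 38.1 ± 0.0602 and 37.5 ± 0.183 FPKM. These levels were close to each other, and PRKD3 and PRKCA overlapped between their DMSO libraries. Further down stood PRKD2, PRKCB and PRKCI, and PRKCE and PRKCH were the lowest. Within HT, PRKCD was the most abundant member in every library, with 78.4 to 107 FPKM and 37.5% to 53.6% of the members' summed FPKM. PRKD2 and PRKCI followed among the HT DMSO libraries. The DMSO libraries of PRKD3, PRKCE, PRKCZ and PRKCA lay within 9.97 to 14.3 FPKM. PRKD3, at 11.5 and 14.3 FPKM, stood just above PRKCA, at 11.1 and 11.3 FPKM. All other pairs of these genes overlapped, so the rest of their order is not resolved. PRKCB and PRKCH stayed under 1 FPKM in both HT DMSO libraries.

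**Figure D1:**
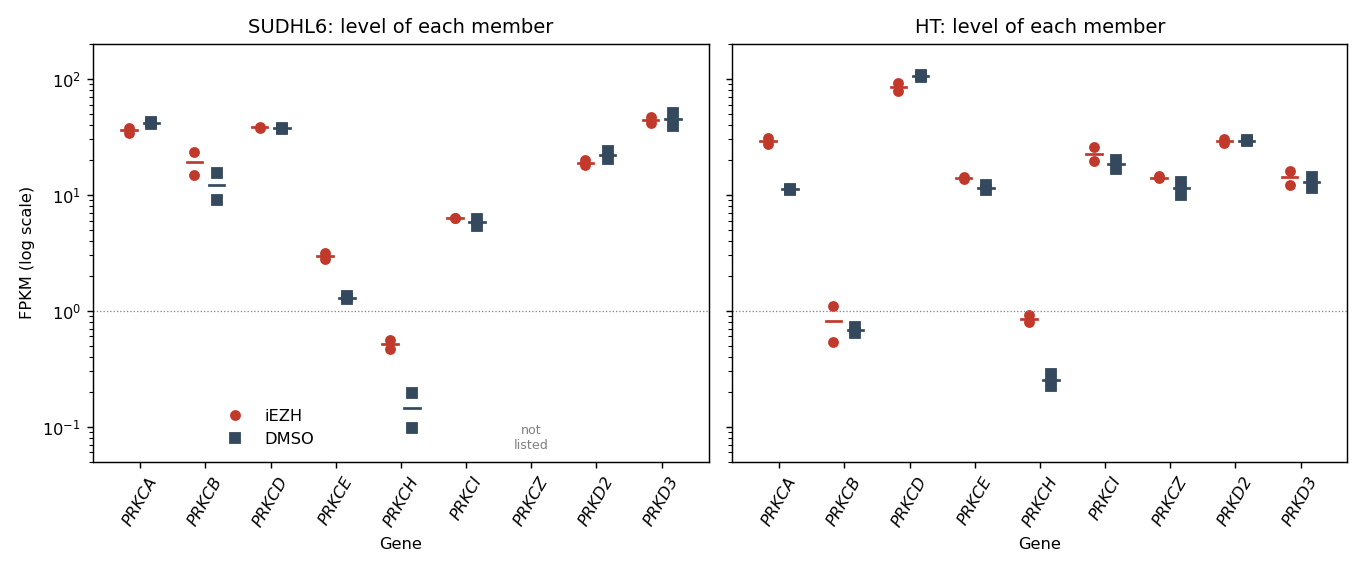
FPKM (log axis) of each listed member in each library of SUDHL6 (left) and HT (right); red circles are iEZH libraries, dark squares DMSO libraries, short bars group means of 2 libraries, and the dotted line 1 FPKM. In HT the PRKCA circles lie at 27.5 and 31.2 FPKM, above the squares at 11.1 and 11.3 FPKM, and PRKCH lies under 1 FPKM throughout.

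Most members had different DMSO levels in the 2 lines. The tables were normalized separately, so these levels are set side by side with no test. PRKCB had 8.99 and 15.4 FPKM in SUDHL6 DMSO libraries and 0.648 and 0.718 FPKM in HT DMSO libraries. PRKCA had 42.3 and 41.1 FPKM in SUDHL6 and 11.1 and 11.3 FPKM in HT. PRKD3 likewise had 39.6 and 51.2 FPKM in SUDHL6 and 11.5 and 14.3 FPKM in HT. The opposite order held for PRKCD, with 37.6 and 37.3 FPKM in SUDHL6 and 104 and 107 FPKM in HT, and for PRKCE, with 1.27 and 1.33 FPKM in SUDHL6 and 10.9 and 12.2 FPKM in HT. PRKCI had 5.43 and 6.22 FPKM in SUDHL6 and 16.8 and 19.9 FPKM in HT. PRKD2 had 20.4 and 23.7 FPKM in SUDHL6 and 29.5 and 28.9 FPKM in HT. Both classical members and PRKD3 thus had the higher values in SUDHL6, and PRKCD, PRKCE, PRKCI and PRKD2 in HT, the line in which PRKCZ was listed.

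PRKCA, the classical isoform PKC alpha (hg19 chromosome 17, 64298925 to 64806862, a gene of 507.9 kb), was lower with iEZH in SUDHL6, without passing the test, and higher in HT. It had 38.0 and 33.8 FPKM in SUDHL6 with iEZH, against 42.3 and 41.1 FPKM in SUDHL6 with DMSO. These groups did not overlap, and the log2 change of FPKM + 1 was -0.21 (SE 0.12; limma adjusted p = 0.421). PRKCA had 27.5 and 31.2 FPKM in HT with iEZH, against 11.1 and 11.3 FPKM in HT with DMSO. The HT groups did not overlap, and the iEZH libraries stood 2.49 and 2.76 times above the DMSO library of the same number. The log2 change in HT was 1.31 (SE 0.13), with an adjusted p of 0.0401 by limma over 11321 genes. It was the 1 member called among 7 tested in HT, where 0.609% of all genes tested were called and 0.459% were called as higher. Since the family was proposed with this contrast known, nothing is read from that count. In the fit of all genes PRKCA stood at rank 32 by p and at rank 50 by size of rise. With genes spanning under 300 bp left out its adjusted p was 0.0203, and 5.51% of genes were called. The call was lost without HT iEZH replicate 1 (adjusted p = 0.0515), without HT iEZH replicate 2 (0.0697), without HT DMSO replicate 1 (0.0941) and without the filter on low values (0.0891), while the log2 change stayed between 1.226 and 1.401 over all 15 alternatives. In bulk libraries, a change in the share of cells that express a gene and a change in its RNA per cell cannot be told apart.

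The change of PRKCA in SUDHL6 minus the change in HT was -1.53 on the log2 scale (SE 0.15), with an adjusted p of 0.0274 by limma over 10427 genes tested in both lines. PRKCA was the 1 member called of 6 tested for this difference, where 0.105% of genes were called, and it stood at rank 9 by p. The difference missed the threshold without any 1 of the 8 libraries (adjusted p = 0.0713 to 0.231), with sizes from -1.61 to -1.44. With iEZH, PRKCA averaged 35.9 ± 2.92 FPKM in SUDHL6 and 29.3 ± 2.6 FPKM in HT; these levels come from separately normalized tables. In HT with iEZH, PRKCA passed PRKCI and reached the level of PRKD2 (29.1 ± 1.89 FPKM).

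PRKCB encodes PKC beta, the classical isoform that couples the B cell receptor to NF-kB (hg19 chromosome 16, 23847299 to 24231932). It had 14.8 and 23.3 FPKM in SUDHL6 with iEZH, against 8.99 and 15.4 FPKM in SUDHL6 with DMSO. The groups overlapped, and within each replicate number the iEZH library was higher, by 1.65 and 1.51 times. The log2 change was 0.62 (SE 0.33; limma adjusted p = 0.405), and it ranged from 0.259 to 0.975 with 1 library left out. In HT it had 0.541 and 1.09 FPKM with iEZH, against 0.648 and 0.718 FPKM with DMSO. These HT groups overlapped too, and the gene did not pass the filter of 1 FPKM in 2 of 4 libraries, so that it was not tested there. The classical members together made up 33.0% and 33.3% of the members' FPKM in SUDHL6 with iEZH, against 32.9% and 32.0% with DMSO. In HT they made up 13.3% and 15.4% with iEZH, against 6.01% and 5.8% with DMSO. In HT nearly all of the classical FPKM was PRKCA. The DAG-only isoforms made up 25.9% and 24.3% in SUDHL6 with iEZH, against 25.1% and 22.0% with DMSO, and 50.4% and 44.7% in HT with iEZH, against 59.3% and 57.5% with DMSO. The atypical isoforms made up 3.95% and 3.69% in SUDHL6 with iEZH, against 3.48% and 3.53% with DMSO, and 16.1% and 18.9% in HT with iEZH, against 13.7% and 15.9% with DMSO. PKD made up 37.1% and 38.7% in SUDHL6 with iEZH, against 38.5% and 42.4% with DMSO, and 20.2% and 21.0% in HT with iEZH, against 21.0% and 20.8% with DMSO. The HT groups stood apart for the classical and DAG-only shares and nearly met or overlapped for the others. The shares of 1 library sum to a whole, so a larger share of one class lowers the others.

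**Figure D2:**
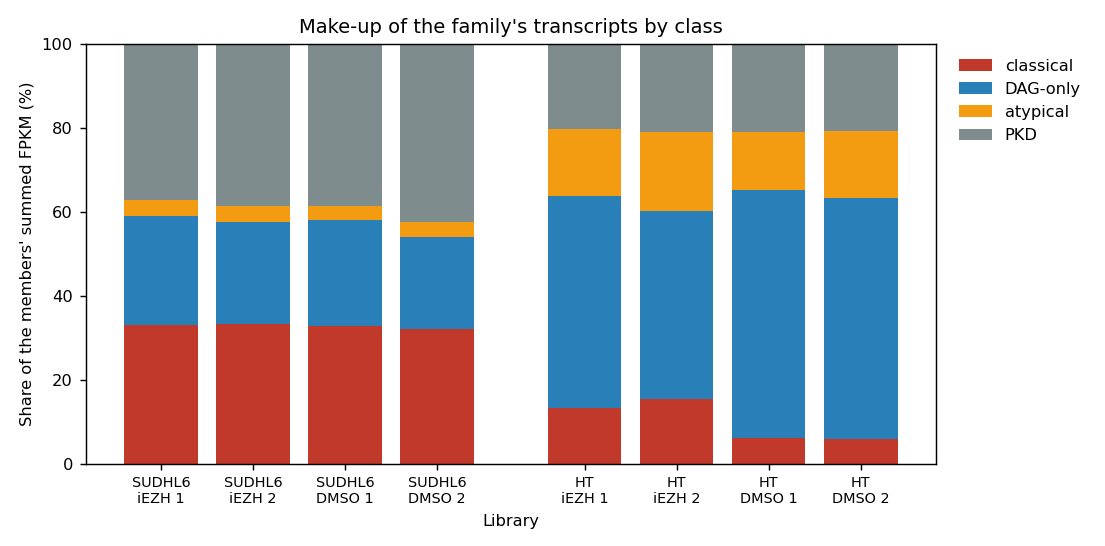
Share of the members' summed FPKM (percent, vertical axis) held by classical, DAG-only and atypical PKC and by PKD in each of the 8 libraries. The classical share in HT is 13.3% and 15.4% with iEZH and 6.01% and 5.8% with DMSO, while in SUDHL6 it stays at 32.0% to 33.3%.

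Among the DAG-only isoforms, PRKCE (PKC epsilon, hg19 chromosome 2, 45879042 to 46415129) was higher with iEZH in all comparisons of libraries. It had 2.79 and 3.14 FPKM in SUDHL6 with iEZH, against 1.27 and 1.33 FPKM in SUDHL6 with DMSO. The groups were well apart, with a ratio of means of 2.29. The log2 change was 0.79 (SE 0.11), with an unadjusted p of 0.00133 and an adjusted p of 0.111 by limma. PRKCE was thus not called, and 0 of 7 members tested in SUDHL6 were called, where 0.269% of all genes were. PRKCE was the 1 member of the 7 with an unadjusted p under 0.05 by limma. Of all 11173 genes tested, 2095 had such a p, so nothing is read from that count. Fitted together with HT, which shares 1 estimate of the spread, PRKCE passed with a limma adjusted p of 0.0276. In that fit 3.37% of all genes were called. In HT PRKCE had 13.6 and 14.2 FPKM with iEZH, against 10.9 and 12.2 FPKM with DMSO, a log2 change of 0.25 (SE 0.13; limma adjusted p = 0.343). The difference, SUDHL6 minus HT, was 0.54 (SE 0.15; limma adjusted p = 0.271).

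PRKCH (PKC eta, hg19 chromosome 14, 61788514 to 62017698) was low in both lines and higher with iEZH in both. It had 0.564 and 0.464 FPKM in SUDHL6 with iEZH, against 0.194 and 0.0982 FPKM in SUDHL6 with DMSO. In HT it had 0.793 and 0.912 FPKM with iEZH, against 0.226 and 0.284 FPKM with DMSO. Neither line showed an overlap, and the ratio of means was 3.52 in SUDHL6 and 3.34 in HT. No library reached 1 FPKM, so the gene was not tested. Without the filter its log2 change was 0.402 in SUDHL6 (limma adjusted p = 0.158) and 0.561 in HT (0.0905), where the pseudocount of 1 FPKM shrinks the change of so low a gene. Per the table headers the authors set a threshold for reliable quantification in each library, at 0.42 and 0.352 FPKM for SUDHL6 with iEZH and 0.264 and 0.383 FPKM for SUDHL6 with DMSO, and at 0.315 and 0.345 FPKM for HT with iEZH and 0.324 and 0.305 FPKM for HT with DMSO. PRKCH lay above it in all 4 iEZH libraries and below it in all 4 DMSO libraries, so its ratios rest on DMSO values below that threshold. The threshold is 1 FPKM value per library for all genes, and read counts of PRKCH were not available. PRKCH had the lowest DMSO level of the listed members in both lines; PRKCQ in both lines and PRKCZ in SUDHL6 fell outside the tables. PRKCE and PRKCH were the 2 of 8 members listed in both tables that were higher without overlap in both lines, a pattern found in 15.5% of all genes listed in both. None was lower in both lines, against 8.96% of all genes. The T cell markers CD3D and CD3E were also low in HT and higher with iEZH. CD3D had 0.23 and 0.24 FPKM with iEZH against 0.0613 FPKM, the floor of the HT values, in both DMSO libraries. All these CD3D values lay below the authors' threshold, so by that threshold the change of CD3D is not reliably quantified. CD3E had 0.815 and 1.21 FPKM with iEZH against 0.543 and 0.393 FPKM with DMSO. The part of CD3D and CD3E in the PRKCH values was not tested.

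PRKCD, the DAG-only isoform PKC delta (hg19 chromosome 3, 53195222 to 53226733), was the major PKC of HT. It had 38.0 and 38.1 FPKM in SUDHL6 with iEZH, against 37.6 and 37.3 FPKM with DMSO. The groups did not overlap, but they differed by only 1.02 times, and the log2 change of 0.02 (limma adjusted p = 0.939) turned to -0.004 with median-ratio rescaling. PRKCD had 91.8 and 78.4 FPKM in HT with iEZH, against 104 and 107 FPKM in HT with DMSO. The iEZH libraries were both lower, and the log2 change was -0.31 (SE 0.13; limma adjusted p = 0.259). The difference, SUDHL6 minus HT, was 0.34 (SE 0.16; limma adjusted p = 0.509). The PRKCD share of the members' FPKM in HT was 43.5% and 37.5% with iEZH, against 53.6% and 51.5% with DMSO.

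The atypical isoforms, which work with PAR6 proteins in cell polarity, did not pass the test. PRKCI (PKC iota, hg19 chromosome 3, 169940219 to 170023770) had 6.31 and 6.33 FPKM in SUDHL6 with iEZH, against 5.43 and 6.22 FPKM with DMSO. In HT it had 19.5 and 25.6 FPKM with iEZH, against 16.8 and 19.9 FPKM with DMSO, with overlap. Its log2 changes were 0.10 (SE 0.11) in SUDHL6 and 0.28 (SE 0.18) in HT, with limma adjusted p of 0.685 and 0.44; quantile normalization turned the SUDHL6 value to -0.024, and the HT value ranged from 0.088 to 0.464 with 1 library left out. PRKCZ (PKC zeta, hg19 chromosome 1, 1981908 to 2116834) had 14.4 and 13.9 FPKM in HT with iEZH, against 9.97 and 13.04 FPKM in HT with DMSO. The HT groups did not overlap, yet the distance between the DMSO libraries was larger than the gap, and the log2 change was 0.29 (SE 0.16; limma adjusted p = 0.382), or 0.108 to 0.464 with 1 library left out. The PRKCZ gene shares 937 bases with C1orf86, which had 38.6 to 62.0 FPKM in HT, and reads there are uncertain, since the strand used in counting is not given in the sources used here.

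Neither of the 2 PKD genes passed the test in either line. PRKD2 (hg19 chromosome 19, 47177572 to 47220384) had 18.1 and 19.8 FPKM in SUDHL6 with iEZH, against 20.4 and 23.7 FPKM with DMSO, both lower without overlap (log2 change -0.21, SE 0.13; limma adjusted p = 0.468). In HT it had 30.5 and 27.8 FPKM with iEZH, against 29.5 and 28.9 FPKM with DMSO, with the DMSO libraries between the iEZH libraries (limma adjusted p = 0.991). LOC100506068 shares 3142 bases with PRKD2 but had at most 0.524 FPKM in any library. PRKD3 (hg19 chromosome 2, 37477645 to 37544222) had 41.3 and 46.7 FPKM in SUDHL6 with iEZH, against 39.6 and 51.2 FPKM with DMSO. In HT it had 12.2 and 16.1 FPKM with iEZH, against 11.5 and 14.3 FPKM with DMSO. PRKD3 groups overlapped in both lines, with log2 changes of -0.04 (SE 0.17) in SUDHL6 and 0.12 (SE 0.19) in HT, both of which turned sign with 1 library left out (limma adjusted p = 0.943 and 0.756). These p-values do not show that the levels were equal. Subtracting the HT change from the SUDHL6 change gave, for PRKCI, PRKD2 and PRKD3, -0.17 (SE 0.22), -0.20 (SE 0.16) and -0.16 (SE 0.27), with limma adjusted p of 0.866, 0.746 and 0.905.

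**Figure D3:**
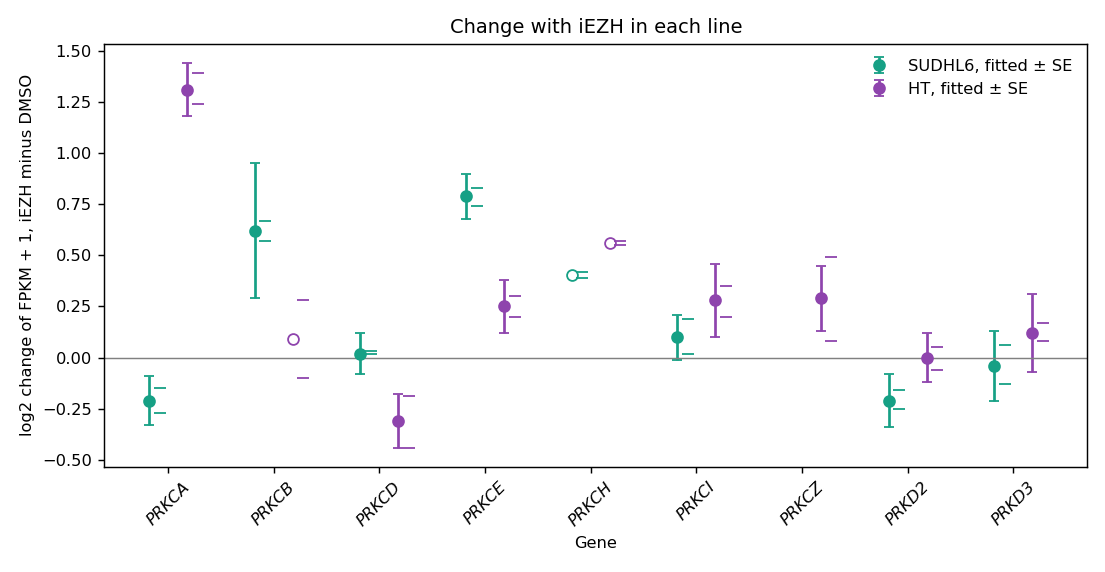
Log2 change of FPKM + 1, iEZH minus DMSO (vertical axis), for each member in SUDHL6 (green, left) and HT (purple, right). Filled circles with bars are fitted changes ± SE, open circles are means of members not tested, and dashes are the changes within replicate numbers 1 and 2. PRKCA stands at -0.21 in SUDHL6 and 1.31 in HT, and PRKCE at 0.79 in SUDHL6.

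Counted over all members, 4 of 8 listed in SUDHL6 (PRKCD, PRKCE, PRKCH and PRKCI) were higher with iEZH without overlap and 2 (PRKCA and PRKD2) were lower. Among all genes listed in SUDHL6, 30.9% were higher and 18.8% lower in this way. In HT, 4 of 9 (PRKCA, PRKCE, PRKCH and PRKCZ) were higher and 1 (PRKCD) was lower, against 31.4% and 20.7% of all listed genes. The median log2 change over the 7 members tested was 0.02 in SUDHL6 and 0.25 in HT, beside 0.04 and 0.02 over all genes tested. The members' summed FPKM was 160 and 172 in SUDHL6 with iEZH, against 156 and 176 with DMSO, and 211 and 209 in HT with iEZH, against 195 and 207 with DMSO. In the authors' deposited table for SUDHL6 the lowest FDR of a member was 0.287 (PRKCE, fold 2.29), and in that for HT it was 0.186 (PRKCA, fold 2.62).

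The genes whose pattern was most like that of PRKCA, over 8 libraries with the mean of each line removed, were CAMKMT (Pearson r = 0.982), CAMSAP1 (0.981) and SOAT1 (0.98). Their log2 changes were smaller than that of PRKCA, at 0.51, 0.62 and 0.37 in HT. Those most like PRKCE were WDR91 (0.993), ZNF641 (0.992) and PXN (0.99), with log2 changes of 0.44, 0.48 and 0.66 in SUDHL6. They were the highest of 7921 genes compared, and libraries of a group share their treatment and line, so the values are a description.

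Around the kinases, 8 lists of 103 genes cover the pathway, of which 82 were tested in SUDHL6 and 80 in HT. SH3BP5, a binding partner and inhibitor of the kinase BTK, was the 1 gene called in SUDHL6. That is 1.22% of the list genes tested, where 0.152% of all genes were called as higher. The lists were chosen with earlier results of these data known, so nothing is read from these shares. SH3BP5 had 15.1 and 17.5 FPKM in SUDHL6 with iEZH, against 2.59 and 3.09 FPKM with DMSO (log2 change 2.17, SE 0.13; limma adjusted p = 0.0159, and 0.0799 without the filter). UNC13B, a DAG-binding protein of vesicle fusion, had 3.52 and 5.1 FPKM in SUDHL6 with iEZH, against 1.97 and 2.96 FPKM with DMSO (0.254). In HT 0 of the 80 were called by limma. Leaving out genes under 300 bp did not alter the log2 changes of the list genes. In that fit 4 of the 80 were called as higher, where 4.07% of all genes were. These were UNC13B, PLCB2, a phospholipase C, VAV2, a guanine nucleotide exchange factor, and MAPKAP1, a subunit of the mTORC2 complex that phosphorylates PKC as it matures. UNC13B had 4.14 and 4.97 FPKM in HT with iEZH, against 1.69 and 1.62 FPKM with DMSO (limma adjusted p = 0.0526, and 0.022 without short genes). PLCB2 had 2.6 and 3.41 FPKM with iEZH, against 1.03 and 1.14 FPKM with DMSO (0.0574 and 0.0265). VAV2 had 16.8 and 17.2 FPKM with iEZH, against 9.08 and 11.2 FPKM with DMSO (0.0779 and 0.0463). MAPKAP1 had 82.7 and 76.3 FPKM with iEZH, against 53.6 and 44.8 FPKM with DMSO (0.0779 and 0.0449). In all 4 genes the HT groups did not overlap. In both lines 0 of the list genes were called as lower.

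Upstream, 8 of 16 genes of DAG and IP3 production were tested in SUDHL6 and 9 in HT, with median log2 changes of 0.21 and 0.02. PLCL2, a phospholipase C-like protein, had 11.4 and 11.2 FPKM in SUDHL6 with iEZH, against 6.31 and 6.48 FPKM with DMSO (limma adjusted p = 0.107), and ITPR1, an IP3 receptor, had 7.5 and 7.62 FPKM with iEZH, against 4.68 and 5.47 FPKM with DMSO (0.143). PLCL2 in HT had 1.49 and 1.76 FPKM with iEZH, against 0.678 and 0.848 FPKM with DMSO, so that it was tested only because of its iEZH level. The 6 DAG kinases tested, which remove DAG, had medians of 0.14 in SUDHL6 and 0.19 in HT. DGKD had 37.7 and 39.9 FPKM in SUDHL6 with iEZH, against 47.0 and 58.1 FPKM with DMSO, and averaged 15.7 ± 0.398 FPKM in HT with iEZH and 11.6 ± 0.106 FPKM in HT with DMSO. DGKD thus lay lower in SUDHL6 and higher in HT without overlap, with limma adjusted p of 0.241 and 0.136. DGKH had 1.75 and 1.46 FPKM in SUDHL6 with iEZH, against 1.12 and 1.09 FPKM with DMSO (0.276). In HT it had 1.46 and 1.89 FPKM with iEZH, against 0.804 and 1.05 FPKM with DMSO, and like PLCL2 it reached the filter there through its iEZH libraries. Of the list of other DAG receptors and members of their gene families, 4 were tested in SUDHL6 and 5 in HT (medians 0.34 and -0.09). RASGRP2, a Ras and Rap exchange factor, had 9.77 and 12.2 FPKM in SUDHL6 with iEZH, against 5.65 and 7.74 FPKM with DMSO (limma adjusted p = 0.19), and RASGRP3 289 and 320 FPKM in HT with iEZH, against 336 and 366 FPKM with DMSO (0.468).

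Of B cell receptor-proximal genes, 12 were tested in SUDHL6 and 11 in HT, with medians of 0.10 and 0.00. CD79B, a signalling chain of the receptor, had 571 and 498 FPKM in HT with iEZH, against 342 and 390 FPKM with DMSO (limma adjusted p = 0.14). Downstream, all 13 genes of the list around BCL10, MALT1 and the IKK kinases were tested in both lines, with medians of -0.03 in SUDHL6 and 0.03 in HT. TAB3, an adaptor of the kinase TAK1, had 5.92 and 6.48 FPKM in SUDHL6 with iEZH, against 4.52 and 5.73 FPKM with DMSO, and 19.6 and 23.5 FPKM in HT with iEZH, against 14.9 and 14.6 FPKM with DMSO (limma adjusted p = 0.446 in SUDHL6 and 0.125 in HT). The adaptor TRAF2 had 20.9 and 17.7 FPKM in HT with iEZH, against 23.5 and 25.7 FPKM with DMSO (0.243).

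All 11 PKC maturation genes were tested in both lines (medians 0.00 in SUDHL6 and 0.05 in HT). In SUDHL6, MAPKAP1 had 50.7 and 44.0 FPKM with iEZH, against 41.5 and 33.9 FPKM with DMSO (limma adjusted p = 0.355). MLST8, an mTOR complex subunit, had 44.8 and 38.9 FPKM in SUDHL6 with iEZH, against 56.7 and 47.8 FPKM with DMSO (0.354). PHLPP2, a phosphatase that inactivates PKC, had 8.42 and 9.02 FPKM in HT with iEZH, against 10.6 and 11.6 FPKM with DMSO (limma adjusted p = 0.237). Of PKC partners and substrates, 16 of 19 were tested in SUDHL6 and 14 in HT, with medians of 0.20 and 0.12, and 0 were called in either line by limma. HDAC9, a deacetylase of the class that PKD phosphorylates, had 16.8 and 16.4 FPKM in SUDHL6 with iEZH, against 7.63 and 7.77 FPKM with DMSO (0.0656). MARCKS, a membrane-bound PKC substrate, had 3.23 and 3.14 FPKM in SUDHL6 with iEZH, against 1.23 and 1.46 FPKM with DMSO (0.107). HDAC4 had 2.26 and 2.46 FPKM in HT with iEZH, against 1.44 and 1.66 FPKM with DMSO, and SQSTM1, a scaffold of atypical PKC, 59.3 and 58.0 FPKM with iEZH, against 70.9 and 78.4 FPKM with DMSO (0.157 and 0.191). The 12 related AGC kinases were all tested in SUDHL6 and 11 of them in HT (medians 0.12 and 0.00). SGK3 had 2.0 and 2.12 FPKM in SUDHL6 with iEZH, against 1.49 and 1.23 FPKM with DMSO, and 5.52 and 7.49 FPKM in HT with iEZH, against 3.38 and 3.42 FPKM with DMSO (0.208 and 0.0899). PKN3 had 15.1 and 17.6 FPKM in SUDHL6 with iEZH, against 24.1 and 23.0 FPKM with DMSO (0.149), and AKT1 60.3 and 56.3 FPKM in HT with iEZH, against 69.8 and 68.0 FPKM with DMSO (0.314).

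**Figure D4:**
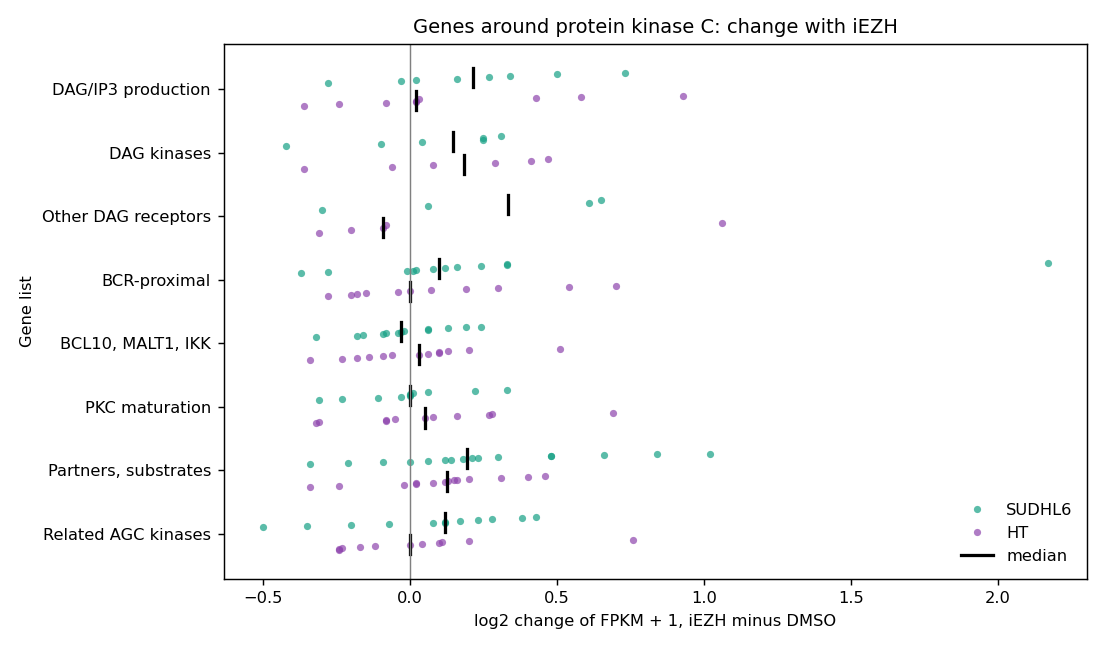
Log2 change of FPKM + 1, iEZH minus DMSO (horizontal axis), of the genes tested in 8 pathway lists; green dots are SUDHL6, purple dots HT, and black bars the median of a list. SH3BP5 stands at 2.17 in SUDHL6, and the medians of the lists run from -0.09 to 0.34.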

How the data were processed

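RNA sequencing of 8 libraries was analysed from the deposited tables, 1 per line. Per the submitters' processing notes, reads were processed with TopHat 1.4.1 and Cufflinks on hg19; annotation, strand and normalization options are not given in the sources used here. Per the file headers, the authors deposited FPKM values of detectable genes, the lowest of which share 1 floor per table (0.0712 in SUDHL6, 0.0613 in HT), with p-values and FDR of a Tukey test and a fold, the ratio of mean iEZH to mean DMSO. Deposited values were used as they are; 1 HT row without a number was left out, and 0 columns were unmatched. The number of libraries limits the precision.

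Each line was fitted alone, over genes that reached 1 FPKM in 2 or more of its 4 libraries, on log2(FPKM + 1) with limma 3.58.1 in R 4.3.3 (eBayes with trend, two-sided, Benjamini-Hochberg over the genes fitted, with 0.05 as the limit for a call). The difference, SUDHL6 minus HT, was the interaction term over 8 libraries. Fits were tested on simulated data. Alternatives were other pseudocounts, filters and scalings, no trend, short genes (under 300 bp) left out, a replicate block, 1 joint fit and each library left out. The members, lists and tests were chosen with earlier results of these data known. Every member is named, with up to 4 called genes of each list and line, or else the 2 with the smallest p. The other genes of the lists enter the counts and medians alone, and a few are not reported here. Likeness was measured among genes of at least 5 FPKM in both lines. Protein sequence features planned for the members were not used here.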

Additional observations from a re-analysis of the deposited data

Results flagged for a closer look

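The change of PRKCA with iEZH differed between the lines by the interaction test, at -1.53 on the log2 scale for SUDHL6 minus HT (limma, Benjamini-Hochberg adjusted p = 0.0274). PRKCA was lower with iEZH in both replicate numbers of SUDHL6 (-0.15 and -0.27) and higher in both of HT (1.24 and 1.39). The call rests on all 8 libraries, since it was lost without any 1 of them (adjusted p = 0.0713 to 0.231).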

How the results depend on the processing

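Of 314 alternative values of the members' log2 changes, 282 kept their direction and their side of the threshold. PRKCA kept its direction in each of 15 alternatives for HT (11 of them called) and 18 for the difference (10 called). Direction turned for PRKD2 in HT with quantile normalization (0.016), PRKCD in SUDHL6 with median-ratio rescaling (-0.004) and PRKCI in SUDHL6 with quantile normalization (-0.024). It also turned with 1 library left out for PRKD2 in HT (-0.068 to 0.06), for PRKD3 in SUDHL6 (-0.217 to 0.144), HT (-0.064 to 0.311) and the difference (-0.347 to 0.028), and for PRKCI in the difference (-0.36 to 0.016); the cause was not tested. With 1 library left out, values moved by over 1.5 times also for PRKCA (-0.293 to -0.131), PRKCI (0.02 to 0.188) and PRKD2 (-0.309 to -0.101) in SUDHL6, for PRKCD in HT (-0.426 to -0.201) and for the difference of PRKCD (0.224 to 0.449) and PRKD2 (-0.305 to -0.097).

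The count of SUDHL6 genes called, 30, became 2 without short genes, 351 in the joint fit and 30 to 49 with 1 library left out. The HT count, 69, became 12 without a filter, 41 at 5 FPKM, 36 with quantile normalization, 615 without short genes, 648 in the joint fit and 35 to 108 with 1 library left out. The difference count, 11, became 17 with a pseudocount of 0.1, 18 without a filter, 7 without short genes and 4 to 15 with 1 library left out. Called members were 0 in HT without a filter, 0 to 1 with 1 HT library left out, 1 in SUDHL6 in the joint fit (PRKCE), 0 with 1 SUDHL6 library left out and 0 with 1 library left out for the difference.

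Same-numbered libraries deviated together (correlation across genes 0.73 in SUDHL6 and 0.62 in HT), but the labels give the numbers no meaning. With a replicate block the genes called were 2313 of 11173 in SUDHL6, 2482 of 11321 in HT and 543 of 10427 for the difference. With short genes also left out they were 3780 of 11006, 3743 of 11164 and 1270 of 10309. Called members with the block were 2 of 7 in SUDHL6 (PRKCB and PRKCE), 1 of 7 in HT and 1 of 6 for the difference. With short genes also left out they were 2, 3 and 2. Of 82 list genes tested in SUDHL6, the block called 11 as higher and 7 as lower, and of 80 in HT 13 and 1. With short genes also left out these counts were 21 and 10 in SUDHL6 and 16 and 8 in HT. So large a part of all genes was called with the block that nothing is read from the member and list counts. Alternatives for list genes were chosen after seeing the data. The 2 libraries per group limit every result here.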
